A study of Mus musculus with 30 samples.

Results

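The fibroblast growth factor (FGF) receptors and ligands described here are 10 genes out of 32386 gene symbols with values in the data. They were chosen by symbol from the family, with earlier results of these data known. They are 4 receptors (*Fgfr1*, *Fgfr2*, *Fgfr3* and the receptor-like *Fgfrl1*) and 6 ligands (*Fgf1*, *Fgf2*, *Fgf7*, *Fgf9*, *Fgf10* and *Fgf18*). The study sorted mesenchymal cells by flow cytometry from the lamina propria of untreated C57BL/6Nrj mice aged 8 to 10 weeks and measured their RNA by bulk sequencing of amplified cDNA. There were 30 libraries, 3 for each of 10 populations, 5 from the small intestine and 5 from the colon. The sample records name 3 individual mice, the paper names 3 experiments, and its Discussion has subsets of both tissues sorted from shared mice. No label says which libraries share a mouse, so the tests treat libraries as independent although contrasts of tissues and populations may share mice, and p-values measure the spread between these libraries. The summed estimated counts of a library ranged from 2245052, in small intestinal Fgfr2+ FB replicate 3, to 19096945, with a median of 9601683. Fibroblasts are abbreviated FB and smooth muscle cells SMC.

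Dead cells, blood lineage cells and cells bearing the endothelial marker CD31, the stromal marker BP3, the epithelial marker EpCAM or high levels of NCAM were gated out in each sort. Pericytes of both tissues were the PDGFRα-ESAM-1+PDPN- cells, and small intestinal SMC were PDGFRα-ESAM-1+PDPN+. The remaining populations lacked ESAM-1. In the small intestine, CD34+ FB and Fgfr2+ FB both had intermediate PDGFRα and were split by CD34, and PDGFRα hi FB lacked CD34. In the colon, PDGFRα hi FB were PDPN+CD34-. The other colonic FB bore CD34: Fgfr2+ FB were PDPN hiCD90-, CD90+ FB were PDPN hiCD90+, and CD81+ FB were PDPN intCD90-. There are 2 names that therefore stand for different gates in the 2 tissues, Fgfr2+ FB and PDGFRα hi FB. No gate used an FGF receptor, but the study named Fgfr2+ FB for *Fgfr2*, so a high *Fgfr2* level there is not an independent finding.

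FGF receptors are receptor tyrosine kinases that bind FGF ligands together with heparan sulfate and signal through adaptor proteins to the ERK cascade, which in turn induces feedback inhibitors of the pathway. Alternative use of a pair of exons in the third immunoglobulin-like domain gives IIIb and IIIc forms of the receptors. The IIIb form of *Fgfr2* is typical of epithelia and binds *Fgf7* and *Fgf10*, which mesenchyme makes, while IIIc forms are typical of mesenchyme and bind ligands such as *Fgf9* and *Fgf18*. In the developing gut this exchange between epithelium and mesenchyme controls growth and differentiation of both layers.

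The labels were checked against marker genes. Levels are CPM (estimated counts of a gene per 1000000 counts of the library), normalized by the trimmed mean of M values (TMM) over the 30 libraries, and errors are SD over 3 libraries unless stated. The summed level of 5 fibroblast markers was between 12060 and 69783 CPM in FB libraries, between 5134 and 9332 CPM in SMC and between 1461 and 2563 CPM in pericytes. Summed pericyte markers were at least 33533 CPM in every pericyte library, and summed smooth muscle markers were between 16820 and 20790 CPM in SMC. Colonic pericytes held smooth muscle markers as well, with *Myh11* at 6867 to 7169 CPM and *Acta2* at 2190 to 3227 CPM. *Pdgfra* had its highest means of the 10 populations in PDGFRα hi FB, 6518 CPM (small intestine) and 2444 CPM (colon). *Cd81* was highest in CD81+ FB, with a mean of 373 CPM. *Thy1*, which encodes CD90, was higher in small intestinal pericytes than in CD90+ FB, with means of 221 and 197 CPM. Epithelial transcripts were few: *Epcam* averaged at most 0.105 CPM in any population, and summed epithelial markers ran from 1.61 to 38.3 CPM. Summed immune markers ran from 5.303 to 204 CPM, summed endothelial markers from 48.8 to 378 CPM and summed mesothelial markers from 0.312 to 17.0 CPM. Red cell markers ran from 0 to 3.65 CPM. The pair of markers of interstitial cells of Cajal reached 547 to 1094 CPM in pericytes, nearly all of it *Ano1*, whereas *Kit* averaged 2.93 CPM (small intestine) and 0.0420 CPM (colon) there.

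*Fgfr1*, a receptor for many FGF ligands, was detected in every library, from 51.9 to 691 CPM. Its level in CD81+ FB replicates 1 to 3 was 659.7, 594 and 691 CPM, above every other library. Small intestinal PDGFRα hi FB followed with 377, 369.6 and 369.6 CPM, and CD34+ FB with 335, 366 and 352 CPM, although the highest single Fgfr2+ FB libraries of the small intestine and colon, at 385 and 389 CPM, passed both. Below these 3 populations the neighbours in the order overlapped: CD90+ FB (mean 315 ± 18.1 CPM), colonic Fgfr2+ FB (309.6 ± 70.5), small intestinal Fgfr2+ FB (257 ± 119), colonic PDGFRα hi FB (225 ± 50.5), colonic pericytes (171 ± 53.3) and SMC (161 ± 58.2). Small intestinal pericytes were lowest, at 84.7, 94.2 and 51.9 CPM.

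*Fgfr2* varied most among the well detected receptors. In small intestinal Fgfr2+ FB it was at 1469, 1982 and 1488 CPM, and in colonic Fgfr2+ FB at 504, 459 and 457 CPM. Every library of the first lay above every library of the second, and both lay above all other populations. CD90+ FB (324, 441 and 333 CPM), SMC (450.0, 339 and 205 CPM) and small intestinal CD34+ FB (258, 357 and 310.5 CPM) came next and overlapped with each other. Colonic CD81+ FB were spread widely, with 251 and 184 CPM in replicates 1 and 2 and 50.7 CPM in replicate 3, so that their range contained that of colonic PDGFRα hi FB (112, 208 and 118 CPM). Small intestinal PDGFRα hi FB held 40.3, 69.6 and 39.2 CPM. Pericytes of both tissues were close to the limit of detection, with 4.5, 1.26 and 1.11 CPM (small intestine) and 2.58, 1.01 and 1.44 CPM (colon), which rest on 8 to 24 counts a library.

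*Fgfr3*, another receptor of the family, was low in most libraries and very uneven between replicates. The highest value was in colonic CD81+ FB replicate 3, at 673 CPM from 8083 counts, while replicates 1 and 2 had 0.546 and 0.378 CPM. The population mean of 225 CPM therefore rests on 1 library, and without it the mean was 0.462 ± 0.119 CPM (n = 2). Small intestinal pericytes held 94.3, 4.29 and 23.6 CPM, small intestinal CD34+ FB 6.10, 3.14 and 9.67 CPM, and CD90+ FB 5.39, 5.2 and 1.84 CPM. Fgfr2+ FB of the small intestine had 3, 0 and 0 counts, and a count of 0 allows up to 1.04 CPM at the depth of the shallowest of these libraries, taking 3 counts as the limit. Such limits cover counting error only, since amplified reads are not independent molecules. Apart from these, *Fgfr3* was at 13.0 CPM in colonic Fgfr2+ FB replicate 3 and at most 3.42 CPM elsewhere. All neighbours in the order of the 10 means overlapped. As for its sequence, 14.9% of the 31-base stretches of *Fgfr3* occur in other genes and 13.9% of its exon bases overlap a gene on the opposite strand that has no values in the data, so its values carry this uncertainty.

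In the library with the high *Fgfr3* value, colonic CD81+ FB replicate 3, epithelial markers summed to 6.41 CPM with 3 of 8 at 0, *Epcam* and *Krt8* among them, and *Lgr5* the most abundant. The other replicates had 5.85 and 1.77 CPM. Immune markers summed to 12.6 CPM there (9.67 and 6.05 in the others) and endothelial markers to 322 CPM (378 and 373), most of it *Tek*. *Cdh5*, another endothelial marker, had 0 counts in replicate 3. Whether cells of other types had a part in the *Fgfr3* value was not tested. In small intestinal pericytes replicate 1, which had the highest *Fgfr3* and *Fgfrl1* of the pericyte libraries, immune markers summed to 204 CPM with 4 of 6 at 0 and *Cd79a* at 199.5 CPM, and endothelial markers to 350.0 CPM. Their part in the values was not tested either.

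*Fgfrl1*, a family member without a kinase domain, stayed below 18 CPM in 29 of the 30 libraries. The exception was small intestinal pericytes replicate 1 at 48.0 CPM, beside 0 and 14.8 CPM in its other replicates. Its mean was highest in small intestinal pericytes (20.9 ± 24.6 CPM) and lowest in small intestinal Fgfr2+ FB (0.598 ± 0.683 CPM), and every pair of neighbours in the order overlapped.

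Dividing by the effective transcript length gives an order of receptors within a population. The length is a mean weighted by the estimated levels of a gene's transcripts, 2.14 kb for *Fgfr2* and 2.79 kb for *Fgfr1*. Most *Fgfr2* counts fell on a transcript of 2425 bases, and the next most abundant has 4223 bases. How reads divide over transcripts is an estimate, so the order of receptors close in level is uncertain. On this scale of CPM per kb, *Fgfr2* was the highest receptor in small intestinal Fgfr2+ FB (769 ± 136, against 92.2 for *Fgfr1*), in colonic Fgfr2+ FB (221 against 111) and in CD90+ FB (171 against 113). *Fgfr1* was the highest in small intestinal PDGFRα hi FB (133, with *Fgfr2* at 23.2), in colonic pericytes (61.2) and in colonic PDGFRα hi FB, where *Fgfr2* was close to it (80.8 and 68.2). In small intestinal CD34+ FB the 2 receptors had like levels per kb, 144 for *Fgfr2* and 126 for *Fgfr1*. In SMC *Fgfr2* led with 155 CPM per kb. In CD81+ FB *Fgfr1* was at 232 CPM per kb and *Fgfr2* at 75.6, and the *Fgfr3* mean of 227 rested on replicate 3 (SD 392). In small intestinal pericytes *Fgfr3* had the highest mean per kb, 41.1, but an SD of 47.8, and *Fgfr1* was at 27.6. The place of *Fgfr3* above *Fgfr1* rested on replicate 1, at 94.3 CPM, while the lowest library held 4.29 CPM.

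**Figure D1:**
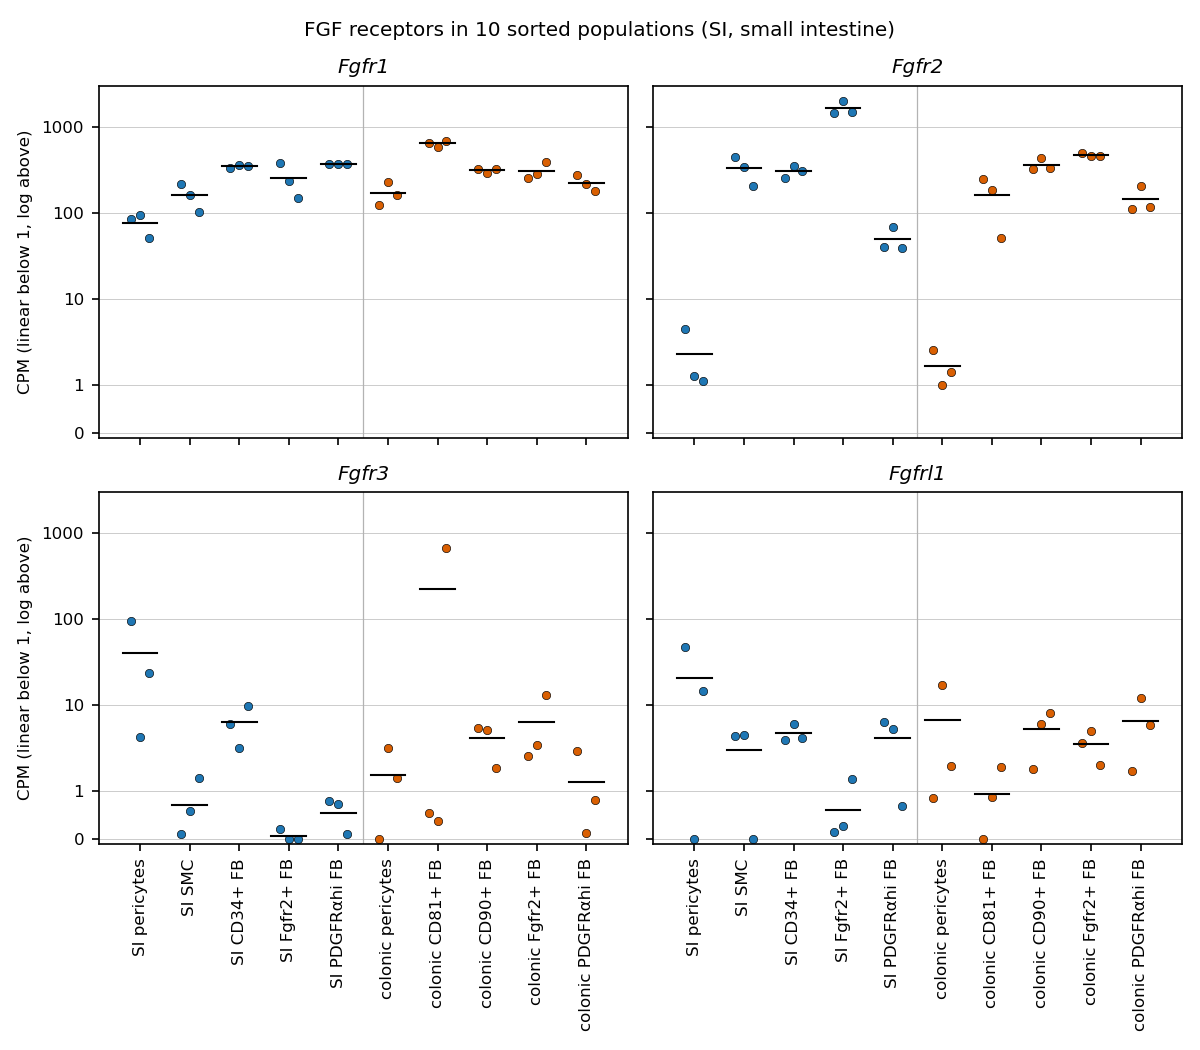
Level of *Fgfr1*, *Fgfr2*, *Fgfr3* and *Fgfrl1* in each of the 30 libraries (points; blue small intestine, orange colon) with the mean of each population (lines), in CPM on an axis that is linear below 1 and logarithmic above. *Fgfr2* lay between 1469 and 1982 CPM in small intestinal Fgfr2+ FB and at or below 4.5 CPM in pericytes, and the *Fgfr3* mean of CD81+ FB rested on the library at 673 CPM.

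*Fgfr2* (chr7:130162451-133123350, minus strand, GRCm38) had 27 annotated transcripts in the data, of which 22 had at least 1 count in some library. The annotation places the IIIb exon in 10 of them, the IIIc exon in 5 and neither exon in 12. The IIIb exon is shown because the split of *Fgfr2* reads between the receptor forms rests in part on it. It has 148 bases and lies at chr7:130199758-130199905, on the minus strand of GRCm38.
IIIb exon: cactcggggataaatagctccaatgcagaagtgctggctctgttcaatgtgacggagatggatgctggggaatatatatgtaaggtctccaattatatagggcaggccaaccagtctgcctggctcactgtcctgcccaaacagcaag

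Most *Fgfr2* counts fell on a transcript of neither class. Fgfr2-217 held 72.6% of all *Fgfr2* counts over the 30 libraries, followed by Fgfr2-207 (IIIc) with 12.1%, Fgfr2-226 (neither) with 3.48%, Fgfr2-221 (neither) with 1.96% and Fgfr2-211 (IIIb) with 1.82%. Fgfr2-217 has 7 exons and 2425 bases, of which 5 exons and 2050 bases (84.5%) are shared with Fgfr2-207. Its first 2 exons, chr7:133123141-133123350 and chr7:133081757-133081860, together 314 bases, lie upstream of the start of Fgfr2-207, the first of them by 2856896 bases, and overlap exons of the neighbouring gene *Ctbp2* on the same strand. *Ctbp2* averaged between 22.0 and 49.3 CPM in the 10 populations. In pericytes it was at 34.6 CPM (small intestine) and 31.8 CPM (colon), while Fgfr2-217 was at 1.93 and 1.22 CPM there. Fgfr2-217 averaged 1218 CPM in small intestinal Fgfr2+ FB, 344 CPM in colonic Fgfr2+ FB, 277 CPM in CD90+ FB and, at the low end, 37.1 CPM in PDGFRα hi FB of the small intestine. The other 26 transcripts together gave 429, 129, 89.1 and 12.6 CPM in the same populations, and at most 0.452 CPM in pericytes. Outside the pericytes, the populations thus kept the order of their *Fgfr2* means without Fgfr2-217. On Fgfr2-217 alone 1 pair was turned: colonic PDGFRα hi FB were above CD81+ FB (119 and 98.5 CPM). They were below them on the other transcripts (26.8 and 63.2 CPM) and on all transcripts together (146 and 162 CPM). How reads were divided between transcripts that share most of their bases is an estimate, so shares of single transcripts are uncertain.

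Of the *Fgfr2* counts on transcripts that hold either exon, most were on the IIIc form in 23 of the 24 libraries outside the pericytes. The IIIc share was 66.7%, 86.3% and 88.3% in small intestinal and 86.8%, 66.7% and 93.6% in colonic Fgfr2+ FB. In PDGFRα hi FB it was 73.8%, 91.0% and 83.8% (small intestine) and 86.5%, 100% and 83.9% (colon). These ranges overlapped. The share was 96.6 ± 1.52% in SMC, 97.0 ± 0.314% in CD90+ FB and 89.3 ± 4.02% in small intestinal CD34+ FB. The exception was CD81+ FB replicate 2 at 27.5%, while replicates 1 and 3 stood at 100% and 99.0%. The means of Fgfr2+ FB (81.4 ± 11.7%, n = 6) and PDGFRα hi FB (86.5 ± 8.69%, n = 6) differed by −5.08 percentage points, which an exact two-sided permutation test over 924 assignments of the libraries did not separate (p = 0.416). The difference moved to −2.14 points without small intestinal Fgfr2+ FB replicate 1, to −2.13 points without colonic Fgfr2+ FB replicate 2 and to −2.38 points without colonic PDGFRα hi FB replicate 2. The 2 classes held between 14.3% and 32.0% of *Fgfr2* counts in the means of these 8 populations, and in each pericyte library the classes had fewer than 20 counts, too few for a share.

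For comparison, *Fgfr1* had 19 transcripts in the data, and its IIIc share was 30.1 ± 11.9% in small intestinal and 81.4 ± 27.3% in colonic Fgfr2+ FB. The ranges did not overlap, from 21.3% to 43.6% and from 50.1% to 100%, and this difference was not tested. The IIIb and IIIc classes held on average 48.1% and 38.8% of *Fgfr1* counts there, and 19.9% in colonic Fgfr2+ FB replicate 1. The 2 most abundant *Fgfr1* transcripts, with 24.0% and 15.6% of its counts over all libraries, are annotated as retained introns and hold neither exon. These shares are therefore uncertain. In PDGFRα hi FB the tissues overlapped, from 69.7% to 82.1% (small intestine) and from 48.1% to 90.4% (colon). Replicates could differ widely, as in colonic pericytes, from 5.73% to 100%. *Fgfr3* had 17 transcripts, and 74.9% of the counts on either class were IIIc in the CD81+ FB library with the high *Fgfr3* value. In the 3 small intestinal pericyte libraries that share was 100%.

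**Figure D2:**
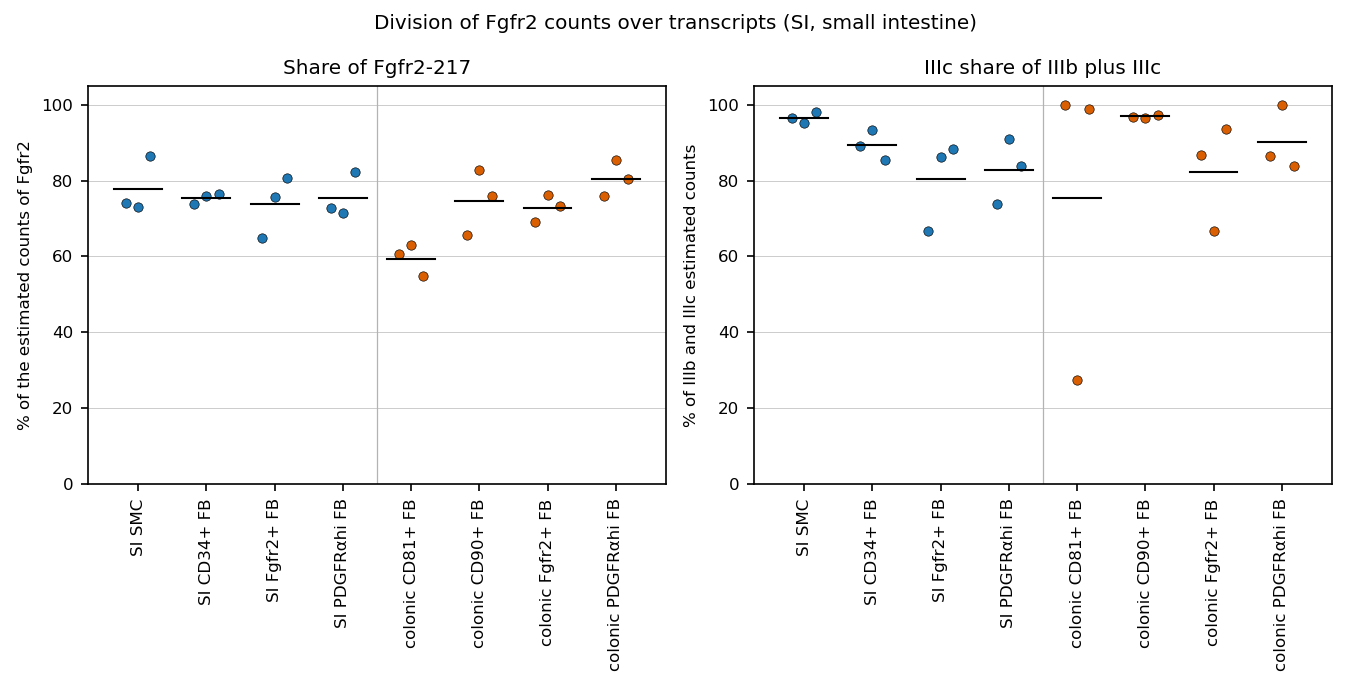
Share of the *Fgfr2* estimated counts on Fgfr2-217 (left, percent) and IIIc share of the *Fgfr2* counts on IIIb and IIIc transcripts (right, percent) in each library of the 8 populations other than pericytes; points are libraries and lines are means. The IIIc share is above 66 percent in every library except CD81+ FB replicate 2, at 27.5 percent.

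Among the ligands, *Fgf1*, a ligand of both IIIb and IIIc receptors, was highest in pericytes. Colonic pericytes had 429, 557 and 601 CPM, above every other library, and small intestinal pericytes 197, 43.6 and 116 CPM. From there down to colonic Fgfr2+ FB neighbours overlapped, with means from 119 ± 76.97 to 31.9 ± 12.3 CPM. SMC were lowest, at 1.69, 8.18 and 2.31 CPM, apart from all other populations.

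*Fgf2*, a secreted growth factor for fibroblasts and endothelium, showed the opposite order for the pericytes. It was at 278, 258 and 241 CPM in CD81+ FB and at 154, 138 and 177 CPM in CD90+ FB, and CD81+ FB were above every other library. CD90+ FB lay above the libraries of the other populations except for SMC replicate 3. At 137.68 CPM that library just passed CD90+ FB replicate 2 at 137.62 CPM. Small intestinal CD34+ FB (117 ± 10.8 CPM) and SMC (104 ± 31.1 CPM) followed, in a run of neighbours that overlapped down to the pericytes (small intestine 33.1 ± 24.9 CPM, colon 26.3 ± 19.1 CPM). *Fgf2* and the antisense gene *Nudt6* share 9.44% of the exon bases of *Fgf2*, and 11.8% of its 31-base stretches occur in other genes. *Nudt6* averaged between 2.298 and 15.3 CPM, and since use of strand is not stated the values of *Fgf2* carry this uncertainty.

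*Fgf7*, also called keratinocyte growth factor, was abundant in some populations and close to absent in others. Colonic PDGFRα hi FB had 194, 119 and 159 CPM and SMC 120.4, 105 and 171 CPM. These 2 overlapped and stood above CD90+ FB (81.8, 91.0 and 83.4 CPM), CD81+ FB (43.4, 108 and 88.1 CPM), colonic Fgfr2+ FB (78.0, 94.97 and 53.4 CPM) and small intestinal CD34+ FB (68.2, 38.4 and 21.7 CPM), except for 1 of the libraries named, CD81+ FB replicate 2, which passed the lowest SMC library. Small intestinal Fgfr2+ FB had 3.77, 0.993 and 16.3 CPM. Values in PDGFRα hi FB of the small intestine were 0.804, 0.282 and 0.689 CPM, from 5 or 6 counts a library, and in pericytes of both tissues at most 1.60 CPM.

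*Fgf9*, a ligand that favours IIIc receptors, was a gene of PDGFRα hi FB in both tissues. Its level was 143.5, 142.9 and 156 CPM (small intestine) and 135, 239 and 164 CPM (colon), and the tissues overlapped. CD81+ FB came next with 21.4, 20.4 and 53.7 CPM. The other 7 populations overlapped in a run of means from 11.3 ± 3.16 CPM in small intestinal pericytes to 7.71 ± 2.46 CPM in CD90+ FB.

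*Fgf10*, like *Fgf7* a ligand of IIIb receptors, was led by colonic populations. Colonic Fgfr2+ FB had 144, 184 and 153 CPM, CD90+ FB 109.7, 141 and 129.9 CPM and small intestinal Fgfr2+ FB 83.1, 64.3 and 42.2 CPM. Each of these 3 lay apart from the next. Colonic PDGFRα hi FB (28.1, 19.4 and 18.3 CPM), SMC (16.9, 16.1 and 22.8 CPM), small intestinal CD34+ FB (15.8, 19.8 and 16.8 CPM) and CD81+ FB (18.3, 9.52 and 16.7 CPM) overlapped with each other. Small intestinal PDGFRα hi FB had the lowest mean, from 0.268, 1.13 and 1.49 CPM, and overlapped with small intestinal pericytes (0.643, 1.26 and 11.3 CPM) and colonic pericytes (2.58, 1.26 and 6.39 CPM).

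*Fgf18*, a ligand of IIIc receptors, was found mainly in CD81+ FB, with 11.2, 44.7 and 27.9 CPM. The highest single value was in colonic pericytes replicate 3, at 98.1 CPM from 1366 counts, while replicates 1 and 2 had 0 counts. Without that library the mean of colonic pericytes went from 32.7 CPM to 0 CPM. In that library pericyte markers summed to 33533 CPM, epithelial markers to 5.1 CPM with 6 of 8 at 0 and immune markers to 27.1 CPM, mostly *Jchain*, and the part of other cells in the value was not tested. Small intestinal pericytes and small intestinal Fgfr2+ FB had 0 counts in all 3 libraries each, which allows up to 0.643 and 1.04 CPM. SMC ranged from 0 to 13.0 CPM, small intestinal CD34+ FB from 1.14 to 9.07 CPM and small intestinal PDGFRα hi FB from 0 to 6.20 CPM. All neighbours in the order overlapped.

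Per kb of effective length, the highest ligand differed between populations. *Fgf1* led in small intestinal pericytes (44.8 CPM per kb) and colonic pericytes (199), and *Fgf9* in small intestinal PDGFRα hi FB (83.7, with *Fgf1* at 41.4). *Fgf7* led in SMC (91.4), in CD90+ FB (59.0), in colonic Fgfr2+ FB (52.2, with *Fgf10* at 46.5) and in colonic PDGFRα hi FB (109, with *Fgf9* at 102). In CD81+ FB *Fgf2* was highest (63.1, with *Fgf7* at 55.2). Small intestinal Fgfr2+ FB had 3 ligands at nearly the same level, *Fgf10* at 18.3, *Fgf1* at 17.9 and *Fgf2* at 15.8 CPM per kb, and small intestinal CD34+ FB likewise *Fgf7* at 29.6, *Fgf2* at 28.5 and *Fgf1* at 22.96.

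**Figure D3:**
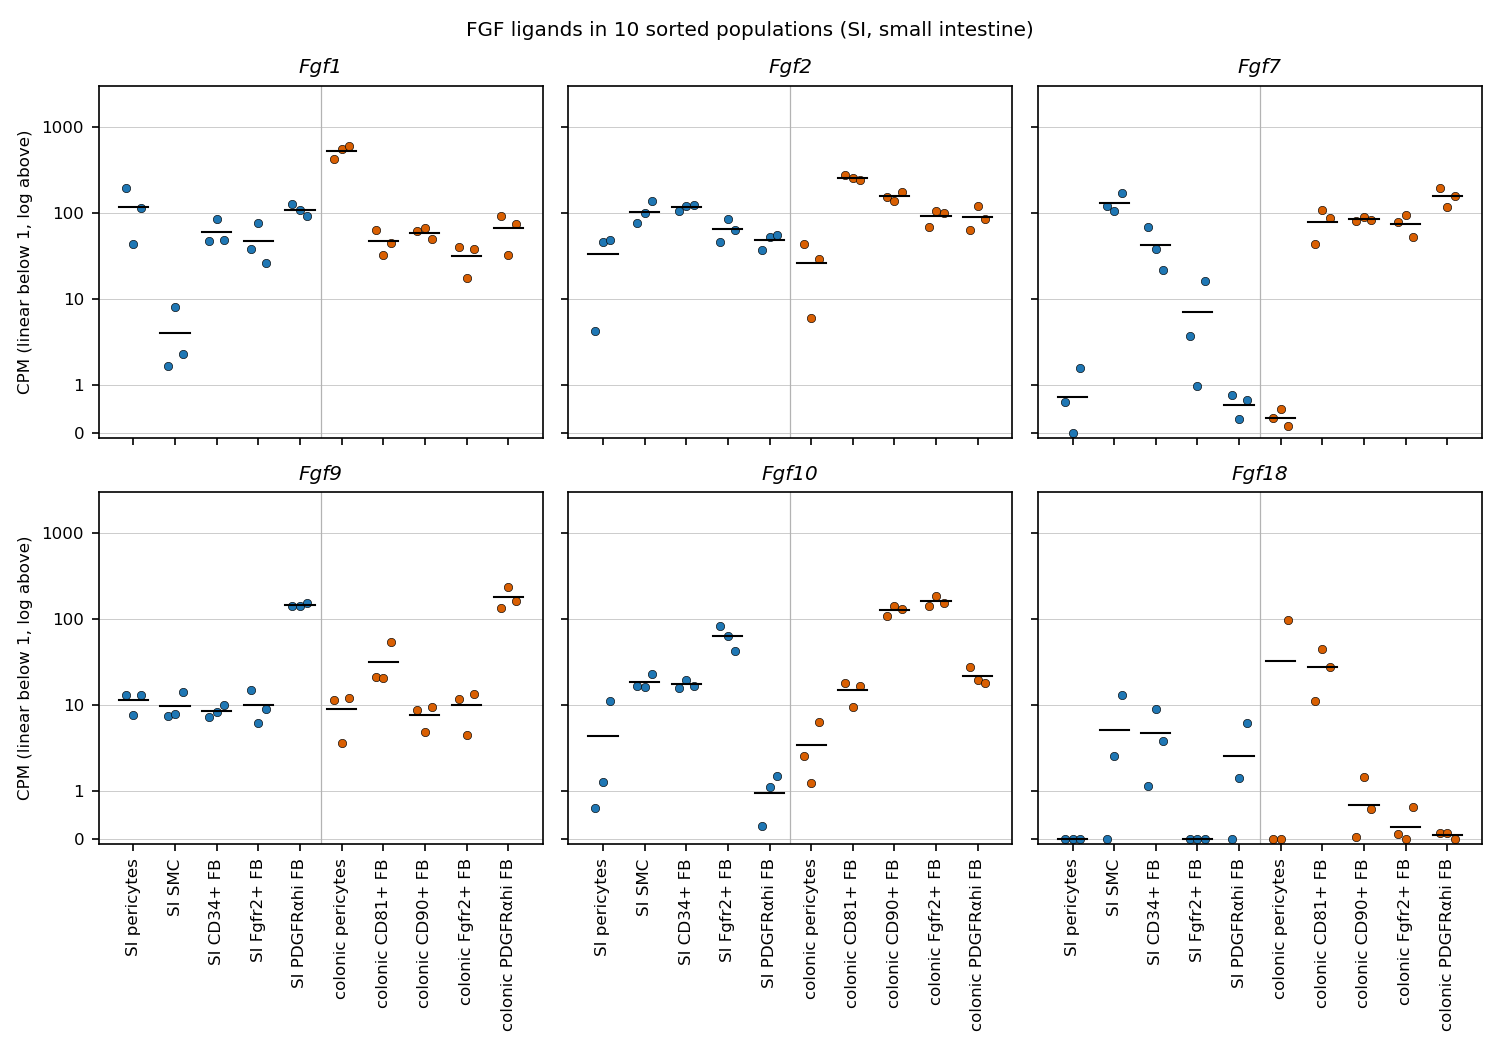
Level of *Fgf1*, *Fgf2*, *Fgf7*, *Fgf9*, *Fgf10* and *Fgf18* in each of the 30 libraries (points; blue small intestine, orange colon) with the mean of each population (lines), in CPM on an axis that is linear below 1 and logarithmic above. *Fgf9* lay between 135 and 239 CPM in PDGFRα hi FB and at or below 53.7 CPM in all other libraries.

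The study compared Fgfr2+ FB with PDGFRα hi FB over both tissues. The fit made here for that comparison had no term for tissue, so tissue differences within a subset add to the spread that its p-values measure. *Fgfr2* and *Fgf10* were higher in Fgfr2+ FB, and *Fgf9* was higher in PDGFRα hi FB. Calls required an absolute log2 fold change above 1.5 and, in edgeR's quasi-likelihood test, a p under 0.05 after Benjamini-Hochberg adjustment over all genes tested. By this rule 3 of the 10 members were called, beside 2.69% of the 15677 genes tested. *Fgfr2*, the gene that Fgfr2+ FB were named for, is 1 of them, and the members were chosen with earlier results of these data known. The share of members called is therefore a description. Of the other FGF ligands 6 were tested and 0 were called. The median log2 fold change was −0.49 over the members and 0.08 over all genes tested. As bulk RNA cannot tell fewer cells of a type from less RNA per cell, the levels of a population are not levels of a cell.

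*Fgfr2* in the 6 libraries of Fgfr2+ FB had a lowest, median and highest level of 457, 986 and 1982 CPM, against 39.2, 90.9 and 208 CPM in PDGFRα hi FB. All 6 lay above all 6. The log2 fold change was 3.47 ± 0.52 (SE; edgeR, Benjamini-Hochberg adjusted p = 0.00113). *Fgf9* ranged from 4.49 to 14.9 CPM in Fgfr2+ FB, with a median of 10.4, and from 135 to 239 CPM in PDGFRα hi FB, with a median of 149.8. Its log2 fold change was −4.01 ± 0.33, below in 6 of 6 libraries (edgeR, Benjamini-Hochberg adjusted p = 9.8e-06). *Fgf10* had a lowest, median and highest level of 42.2, 113 and 184 CPM in Fgfr2+ FB and of 0.268, 9.91 and 28.1 CPM in PDGFRα hi FB, again without overlap. Its log2 fold change was 3.295 ± 0.84 (edgeR, Benjamini-Hochberg adjusted p = 0.0413). The *Fgf10* call was lost without each of 8 of the 12 libraries, namely small intestinal Fgfr2+ FB replicate 2, small intestinal PDGFRα hi FB replicates 2 and 3, colonic Fgfr2+ FB replicates 1 to 3 and colonic PDGFRα hi FB replicates 2 and 3, with adjusted p from 0.0502 to 0.0777. It was also lost with length-scaled TPM, at 0.108, and its adjusted p over all alternatives ran from 0.000394 to 0.108. *Fgfr1* had like levels on both sides, with medians of 269.7 and 324 CPM and a log2 fold change of −0.05 (edgeR, Benjamini-Hochberg adjusted p = 0.965).

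Between the tissues, PDGFRα hi FB differed in 2 ligands and 1 receptor. *Fgfr2*, *Fgf7* and *Fgf10* were each lower in the small intestine than in the colon, in 3 of 3 libraries. That made 3 of 10 members called, beside 1.76% of genes tested, and the members' median log2 fold change was −0.83 against 0.00 over all genes. *Fgf7* went from 157 ± 37.9 CPM in the colon to 0.592 ± 0.274 CPM in the small intestine, a log2 fold change of −8.15 ± 0.93 (edgeR, Benjamini-Hochberg adjusted p = 8.69e-05). For *Fgf10* it was −4.49 ± 0.50, from 21.9 ± 5.34 to 0.963 ± 0.629 CPM (edgeR, Benjamini-Hochberg adjusted p = 7.97e-05). For *Fgfr2* it was −1.60 ± 0.29, from 146 ± 53.9 to 49.7 ± 17.3 CPM (edgeR, Benjamini-Hochberg adjusted p = 0.00537). The size of the *Fgfr2* difference was under the threshold without small intestinal PDGFRα hi FB replicate 1 (−1.48) or 3 (−1.46) or colonic PDGFRα hi FB replicate 2 (−1.24), and its adjusted p over all alternatives ran from 3.78e-05 to 0.0436. The gates of this population differed between the tissues, so tissue and gate cannot be told apart.

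In Fgfr2+ FB the tissues differed in *Fgfr2* and *Fgf7*, in opposite directions. *Fgfr2* was higher and *Fgf7* lower in the small intestine, each in 3 of 3 libraries, and 2 of 10 members were called beside 3.09% of genes tested. The members' median was −0.88 against 0.01. The log2 fold change of *Fgfr2* was 1.84 ± 0.29, between means of 1646 ± 290.6 and 473 ± 26.4 CPM (edgeR, Benjamini-Hochberg adjusted p = 0.0016). That of *Fgf7* was −3.49 ± 0.74, between 7.004 ± 8.13 and 75.4 ± 20.9 CPM (edgeR, Benjamini-Hochberg adjusted p = 0.0145). The *Fgf7* call was lost without small intestinal Fgfr2+ FB replicate 1, at a log2 fold change of −3.17 and an adjusted p of 0.0563, the highest over its alternatives, whose lowest was 3.9e-05. *Fgf10* had a log2 fold change of −1.31 and was not called (edgeR, Benjamini-Hochberg adjusted p = 0.113), although all 3 small intestinal libraries were below all 3 colonic libraries. *Fgfr3*, at 0 to 0.209 CPM against 2.58 to 13.0 CPM, was called by DESeq2 (log2 fold change −5.98, adjusted p = 0.00498) and with a stricter filter on low counts, but not by edgeR, with a log2 fold change of −5.91 and a Benjamini-Hochberg adjusted p of 0.0645. These gates differed between the tissues as well.

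The interaction asks whether the tissue difference itself differed between the 2 subsets, and it was called for 3 of 10 members, beside 1.28% of genes tested. For *Fgfr2* the tissue differences had opposite signs, 1.84 in Fgfr2+ FB and −1.60 in PDGFRα hi FB, and the interaction was 3.44 ± 0.41 on the log2 scale (edgeR, Benjamini-Hochberg adjusted p = 0.000387). For *Fgf10* it was 3.18 ± 0.63 (edgeR, Benjamini-Hochberg adjusted p = 0.0159) and for *Fgf7* 4.66 ± 1.06 (edgeR, Benjamini-Hochberg adjusted p = 0.041): both had lower means in the small intestine in either subset, with the larger difference in PDGFRα hi FB. The median interaction was 0.15 over the members and 0.00 over all genes. The *Fgf10* call was lost without colonic Fgfr2+ FB replicate 2 (adjusted p 0.0511) or 3 (0.0609, the highest of its alternatives, from 6.14e-06) or colonic PDGFRα hi FB replicate 1 (0.0556). The *Fgf7* call was lost without any single library other than small intestinal Fgfr2+ FB replicates 1 and 2, with adjusted p from 0.0517 to 0.13, and with length-scaled TPM at 0.178, over a range of alternatives that started at 0.000281. Without colonic Fgfr2+ FB replicate 2 or 3 or colonic PDGFRα hi FB replicate 1, the number of members called was 1.

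Pericytes were sorted with the same gate in both tissues. *Fgf1* had a higher mean in the colon, 529 ± 89.4 against 119 ± 76.97 CPM, and all 3 colonic libraries lay above all 3 small intestinal libraries. The log2 fold change was −2.13 and did not pass the adjustment (edgeR, Benjamini-Hochberg adjusted p = 0.326). By edgeR 0 of the 8 members tested were called, beside 0% of the 13369 genes tested, and 2 had an unadjusted p below 0.05, *Fgf1* and *Fgfr3*. *Fgf7* and *Fgf18* did not have enough counts to be tested. DESeq2 called 1 member, *Fgfr3*, with a log2 fold change of 4.85 and an adjusted p of 0.0327, among 354 of the 13369 genes. The count is that of the background and is not a result about the members, whose median was 0.36 against 0.01 over all genes.

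Against the FB of the same tissue, pericytes lacked most of the *Fgfr2* signal in both tissues. In the small intestine *Fgfr2* and *Fgfr1* were lower and *Fgfr3* was higher in pericytes than in the mean of the 3 FB populations, and 3 of 10 members were called, beside 15.2% of the 16237 genes tested. The members' median was −1.17 against 0.02. *Fgfr2* was below every FB library in 3 of 3 libraries, with a log2 fold change of −7.07 ± 0.56 (edgeR, Benjamini-Hochberg adjusted p = 1.92e-07). *Fgfr1* was also below every FB library in 3 of 3, with means of 76.9 and 327 CPM and a log2 fold change of −2.07 ± 0.35 (edgeR, Benjamini-Hochberg adjusted p = 0.000586). *Fgfr3* was above every FB library in 2 of 3, with means of 40.7 and 2.31 CPM and a log2 fold change of 5.82 ± 0.89 (edgeR, Benjamini-Hochberg adjusted p = 0.000231). Without small intestinal pericytes replicate 3, 5 members were called, *Fgf7* (log2 fold change −4.28) and *Fgf10* (−3.38) being added. *Fgf7* was also called without Fgfr2+ FB replicate 1 (−2.96) or 2 (−3.04), and *Fgfrl1* without pericytes replicate 2 (3.85) or SMC replicate 3 (3.26). DESeq2, which called 3329 genes here, called both, *Fgf7* at −2.84 (adjusted p = 0.00467) and *Fgfrl1* at 3.40 (adjusted p = 0.0287), as did edgeR without a filter on low counts or with length-scaled TPM.

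Small intestinal SMC shared ESAM-1 and the lack of PDGFRα with pericytes. *Fgfr2* and *Fgf7* were higher and *Fgfr3* and *Fgf1* lower in SMC than in pericytes, each with no overlap between 3 and 3 libraries. Those were 4 of 10 members called, beside 8.51% of genes tested, with a median of 1.37 against 0.02. *Fgfr2* had a log2 fold change of 7.25 ± 0.58 (edgeR, Benjamini-Hochberg adjusted p = 8.24e-07) and *Fgf7* one of 7.44 ± 1.23 (edgeR, Benjamini-Hochberg adjusted p = 0.000829). For *Fgf1* it was −4.85 ± 0.75 (edgeR, Benjamini-Hochberg adjusted p = 0.000464) and for *Fgfr3* −5.84 ± 1.39 (edgeR, Benjamini-Hochberg adjusted p = 0.014). The *Fgfr3* call was lost without pericytes replicate 1 (log2 fold change −4.27, adjusted p 0.0637, the highest over alternatives that start at 4.08e-06), SMC replicate 1 (0.0536) or SMC replicate 2 (0.0608). *Fgf10* was called as higher in SMC without pericytes replicate 3 (4.24, adjusted p 0.00436), and DESeq2 called *Fgf2*, *Fgf10* and *Fgf18* as higher, 7 members in all, where it called 2658 of the 16237 genes and edgeR 1381.

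In the colon, pericytes differed from the mean of the 4 FB populations in 6 of 10 members, beside 16.6% of the 16458 genes tested. *Fgf1* was higher in pericytes, and *Fgfr2*, *Fgf2*, *Fgf7* and *Fgf10* were lower. The members' median was −1.93 against 0.05. *Fgf1* was above every FB library in 3 of 3 (log2 fold change 3.42 ± 0.27; edgeR, Benjamini-Hochberg adjusted p = 7.38e-08). *Fgfr2* (−7.23 ± 0.58; edgeR, Benjamini-Hochberg adjusted p = 7.87e-08) and *Fgf7* (−8.24 ± 0.57; edgeR, Benjamini-Hochberg adjusted p = 1.39e-08) were below every FB library in 3 of 3. For *Fgf2* the log2 fold change was −2.36 ± 0.45 (edgeR, Benjamini-Hochberg adjusted p = 0.00112; 3 of 3 below every FB library) and for *Fgf10* −3.86 ± 0.50 (edgeR, Benjamini-Hochberg adjusted p = 2.33e-05; 3 of 3 below). The sixth call, *Fgf18* at 5.32 ± 1.22 (edgeR, Benjamini-Hochberg adjusted p = 0.00452), was above the FB in 1 of 3 libraries. Without that library, colonic pericytes replicate 3, the log2 fold change was −6.30 with an adjusted p of 0.0634, in a range over alternatives from 0.00027 to 0.233. The call was also lost with the replicate number as a block, which gave the 0.233. *Fgf9*, just under the size threshold at −1.49, was called as lower without colonic pericytes replicate 3 (−1.78), CD81+ FB replicate 1 (−1.56) or 2 (−1.57), CD90+ FB replicate 2 (−1.55) or Fgfr2+ FB replicate 2 (−1.58). The call was also gained with no filter on low counts (−1.51), with length-scaled TPM (−2.02) or with the replicate number as a block (−1.58). Whether the pericytes of the 2 tissues differ from FB to a different degree was not tested.

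Among the small intestinal FB, each population was set against the mean of the other 2. CD34+ FB had more *Fgf7* and *Fgfr3* and less *Fgf9*, 3 of 10 members, beside 2.51% of genes tested, and the median was 1.097 against 0.00. *Fgf7* had a log2 fold change of 4.42 ± 0.81, above the others in 3 of 3 libraries (edgeR, Benjamini-Hochberg adjusted p = 0.00416), and *Fgfr3* one of 4.68 ± 1.04, also in 3 of 3 (edgeR, Benjamini-Hochberg adjusted p = 0.019). For *Fgf9* it was −2.17 ± 0.49 (edgeR, Benjamini-Hochberg adjusted p = 0.0209), with 0 of 3 libraries below all others, since *Fgf9* was as low in Fgfr2+ FB. The *Fgfr3* call was lost without CD34+ FB replicate 1 or 3, Fgfr2+ FB replicate 2 or PDGFRα hi FB replicate 2 or 3 (adjusted p from 0.0521 to 0.0981, over alternatives from 0.000352). The *Fgf9* call was lost without any single library of CD34+ FB or PDGFRα hi FB (adjusted p from 0.0579 to 0.174, over alternatives from 1.35e-06). Without CD34+ FB replicate 1 or 3 or PDGFRα hi FB replicate 2 or 3 a single member was called, which makes 1 of 10.

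Small intestinal Fgfr2+ FB had more *Fgfr2* and *Fgf10* than the mean of the other 2 FB populations. These were 2 of 10 members, beside 0.967% of genes tested, with a median of −0.63 against 0.00. *Fgfr2*, for which the population was named, is 1 of them. The log2 fold change of *Fgfr2* was 3.74 ± 0.37 (edgeR, Benjamini-Hochberg adjusted p = 5.1e-05) and that of *Fgf10* 3.94 ± 0.73 (edgeR, Benjamini-Hochberg adjusted p = 0.0122), each above in 3 of 3 libraries. Without CD34+ FB replicate 1 or 3 or Fgfr2+ FB replicate 1 the *Fgf10* call was lost (adjusted p 0.0575, 0.0546 and 0.062, over alternatives from 1.09e-06), which left 1 member. DESeq2, which called 549 genes here, called 3 further members as lower, *Fgf9* (−1.77), *Fgfr3* (−4.21) and *Fgf18* (−7.12), with adjusted p between 0.000488 and 0.0324, and edgeR called *Fgf9* (−1.81) without small intestinal pericytes replicate 1.

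Small intestinal PDGFRα hi FB had more *Fgf9* and less *Fgfr2*, *Fgf7* and *Fgf10*. Each was apart from the other 2 populations in 3 of 3 libraries, and 4 of 10 members were called, beside 3.12% of genes tested (median −0.12 against 0.02). The log2 fold changes were 3.98 ± 0.43 for *Fgf9* (edgeR, Benjamini-Hochberg adjusted p = 2.39e-05) and −3.85 ± 0.46 for *Fgfr2* (edgeR, Benjamini-Hochberg adjusted p = 7.2e-05). They were −5.08 ± 0.97 for *Fgf10* (edgeR, Benjamini-Hochberg adjusted p = 0.00512) and −4.88 ± 1.07 for *Fgf7* (edgeR, Benjamini-Hochberg adjusted p = 0.0136). The *Fgf7* call was lost without PDGFRα hi FB replicate 1, 2 or 3 (adjusted p from 0.07 to 0.108, over alternatives from 4.95e-07). These 3 comparisons share libraries and are not independent of each other.

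Among the colonic FB, CD81+ FB had less *Fgf10* and more *Fgf18* than the mean of the other 3 populations. With *Fgfr3*, 3 of 10 members were called, beside 3.71% of genes tested, and the median was 0.18 against 0.09. *Fgf18* had a log2 fold change of 6.75 ± 1.41, above in 3 of 3 libraries (edgeR, Benjamini-Hochberg adjusted p = 0.00821). For *Fgf10* it was −2.34 ± 0.46, below every other FB library in 2 of 3 (edgeR, Benjamini-Hochberg adjusted p = 0.0049), and with length-scaled TPM the adjusted p was 0.0821, over alternatives from 5.13e-08. *Fgfr3*, at 6.13 ± 1.27 (edgeR, Benjamini-Hochberg adjusted p = 0.00779), was above in 1 of 3 libraries. Without that library, CD81+ FB replicate 3, its log2 fold change was −2.77 with an adjusted p of 0.347, the highest over alternatives from 0.000138. The *Fgfr3* call was also lost with the replicate number as a block (edgeR, adjusted p 0.340). *Fgfr1* (1.23; edgeR, Benjamini-Hochberg adjusted p = 0.00206) lay above every other FB library in 3 of 3 but under the size threshold.

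In CD90+ FB, edgeR called 0 of 10 members, beside 0.115% of genes tested, with medians of 0.03 and −0.01. *Fgf10* (log2 fold change 1.73; edgeR, Benjamini-Hochberg adjusted p = 0.0802) and *Fgf9* (−2.34; edgeR, Benjamini-Hochberg adjusted p = 0.134) were the 2 members with an unadjusted p below 0.05. DESeq2 called both, among 83 genes, with log2 fold changes of 1.72 and −2.36. Without colonic pericytes replicate 2 or 3, edgeR called *Fgf10* at 1.73, with adjusted p of 0.0181 and 0.0139.

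In colonic Fgfr2+ FB, *Fgf10* was the 1 member of 10 called, beside 0.146% of genes tested. It was above every other colonic FB library in 3 of 3, with a log2 fold change of 2.202 ± 0.36 (edgeR, Benjamini-Hochberg adjusted p = 0.0128). The call was lost, and the count became 0, without colonic Fgfr2+ FB replicate 1, 2 or 3 (adjusted p 0.0817, 0.11 and 0.0855) and with length-scaled TPM (0.19), over alternatives from 4.75e-06. DESeq2 called 2 members, among 113 genes, *Fgf10* and *Fgf9* (−1.83, adjusted p = 0.017). *Fgfr2*, for which the population was named, lay above every other colonic FB library in 3 of 3. It was not called (log2 fold change 1.19; edgeR, Benjamini-Hochberg adjusted p = 0.316). The members' median was −0.61 against 0.00.

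Colonic PDGFRα hi FB had more *Fgf9* than the other colonic FB, above them in 3 of 3 libraries, with a log2 fold change of 3.76 ± 0.42 (edgeR, Benjamini-Hochberg adjusted p = 2.08e-05). *Fgf10* was the other of 2 of 10 members called, beside 3.51% of genes tested, with a log2 fold change of −1.59 ± 0.43, and 0 of 3 libraries lay below all others (edgeR, Benjamini-Hochberg adjusted p = 0.046). The *Fgf10* call was lost, leaving 1 member, without any single FB library other than CD81+ FB replicate 2 (adjusted p from 0.0516 to 0.236, over alternatives from 0.000922). The members' median was −0.78 against −0.04.

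Counted over the 15 comparisons, *Fgfr2* and *Fgf10* were called in 9 each, *Fgf7* in 7, *Fgfr3* and *Fgf9* in 4 each, *Fgf1* and *Fgf18* in 2 each and *Fgfr1* and *Fgf2* in 1 each. *Fgfrl1* was called in 0 of the 15 by edgeR with all libraries and the filter on low counts, with an unadjusted p below 0.05 in 2, and DESeq2 called it in 1, small intestinal pericytes against FB, where edgeR also called it under the other settings named for that comparison. These comparisons share libraries, so the counts are a description.

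The rest of the pathway was described through 71 genes in 6 lists. In the comparison of Fgfr2+ FB with PDGFRα hi FB, 4 of the 56 list genes tested were called higher in Fgfr2+ FB and 3 lower, which is 12.5% beside 2.69% of all genes. *Sulf2* and *Sulf1*, sulfatases that trim heparan sulfate outside the cell, went in opposite directions. *Sulf2* averaged 565 CPM in Fgfr2+ FB and 24.4 CPM in PDGFRα hi FB (log2 fold change 4.55, higher in 6 of 6; edgeR, Benjamini-Hochberg adjusted p = 9.55e-05). *Sulf1* averaged 62.3 and 517 CPM (−3.03, lower in 6 of 6; edgeR, Benjamini-Hochberg adjusted p = 0.000767). The other enzymes of heparan sulfate synthesis and trimming that were tested, 9 of 11, were not called there. In the interaction, *Sulf2* (2.33) and *Sulf1* (−2.53) were again called with opposite signs, with edgeR Benjamini-Hochberg adjusted p of 0.0096 and 0.00236.

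Of the feedback and target genes of FGF and ERK signalling, 14 were tested in that comparison, and 2 were called, beside 2.69% of all genes, both higher in PDGFRα hi FB. *Spry4*, a feedback inhibitor of receptor tyrosine kinase signalling, averaged 40.1 CPM in Fgfr2+ FB and 320.0 CPM in PDGFRα hi FB, lower in 6 of 6 (edgeR, Benjamini-Hochberg adjusted p = 0.000266). *Etv1*, an ETS family transcription factor, averaged 95.8 and 311 CPM (log2 fold change −1.65, lower in 6 of 6; edgeR, Benjamini-Hochberg adjusted p = 0.0176). The list's median was −0.77 against 0.08 over all genes. Within each tissue PDGFRα hi FB were also above the other FB in both genes, in 3 of 3 libraries each: the log2 fold changes were 3.90 for *Spry4* and 3.05 for *Etv1* in the small intestine, and 2.86 and 1.95 in the colon, with edgeR Benjamini-Hochberg adjusted p of at most 0.0259. Pericytes were the other place of high *Spry4*, with means of 346 CPM (small intestine) and 331 CPM (colon).

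Pericytes also stood out in the phosphatase gene *Dusp4*, which averaged 35.0 and 73.7 CPM in small intestinal and colonic pericytes and at most 1.40 CPM in any other population. Its log2 fold change against FB was 6.02 (small intestine) and 7.81 (colon), above in 3 of 3 libraries each (edgeR, Benjamini-Hochberg adjusted p = 0.00077 and 2.1e-05). In SMC against pericytes 5 of the 14 feedback genes were called and all 5 were lower, namely *Dusp4* (−7.35), *Dusp6* (−7.25), *Spry4* (−5.78), *Spry2* (−4.94) and *Spry1* (−2.45), each below in 3 of 3 libraries except *Spry1*, with 0 of 3. Over all lists, 12 of 56 genes were called in each of 2 comparisons, pericytes against FB in the small intestine and SMC against pericytes, which is 21.4% beside 15.2% and 8.51%. In the colon, 18 of 59 list genes were called between pericytes and FB, 30.5% beside 16.6%. There 8 of the 11 heparan sulfate enzymes tested were called, 7 of them lower in pericytes, with *Sulf1* at −5.81 and *Sulf2* at −3.19. *Ndst2* was called as higher, at 168 ± 271 CPM in pericytes. It lay above every FB library in 1 of 3 pericyte libraries and below every FB library in 1 of 3.

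Among other receptors and co-receptors, *Fgfr4* had 0 counts in small intestinal PDGFRα hi FB, in 3 of 3 libraries, and averaged 17.7 CPM in colonic PDGFRα hi FB, higher in 3 of 3, where 0 counts allow up to 0.402 CPM (edgeR, Benjamini-Hochberg adjusted p = 0.00602). *Flrt2*, which like *Flrt3* encodes a membrane protein that associates with FGF receptors, averaged 340.4 CPM in CD81+ FB and 96.9 CPM in small intestinal CD34+ FB but 0.255 and 0.0188 CPM in colonic and small intestinal PDGFRα hi FB. In Fgfr2+ FB it averaged 49.8 CPM in the colon but 0.491 CPM in the small intestine, a called difference (log2 fold change −7.29, lower in 3 of 3; edgeR, Benjamini-Hochberg adjusted p = 0.0072). Over both tissues *Flrt2* (higher in 4 of 6 libraries) and *Flrt3* (4.42, higher in 5 of 6) were called as higher in Fgfr2+ than in PDGFRα hi FB. Against the other FB of the tissue its log2 fold change was 9.72 in small intestinal CD34+ FB (edgeR, Benjamini-Hochberg adjusted p = 0.000884) and 5.26 in CD81+ FB (edgeR, Benjamini-Hochberg adjusted p = 0.000824), above in 3 of 3 each. *Flrt3* was called in the same direction in both, at 4.92 (above in 3 of 3) and 2.68 (above in 1 of 3).

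Of the heparan sulfate proteoglycans and FGF-binding proteins, *Hspg2*, which encodes the basement membrane proteoglycan perlecan, was the most abundant, with a mean of 1568 CPM over the 30 libraries, and *Gpc6* the next, with 624 CPM. *Gpc3* was the 1 gene of 12 tested that was called between Fgfr2+ FB and PDGFRα hi FB, beside 2.69% of all genes, at 52.8 and 4.82 CPM (log2 fold change 3.47, higher in 6 of 6; edgeR, Benjamini-Hochberg adjusted p = 0.0131). Among the receptor adaptors *Gab1* was called in 2 of 15 comparisons, higher in colonic pericytes than FB (1.57) and lower in SMC than pericytes (−1.77). That is 1 of the 8 adaptors tested in each, beside 16.6% and 8.51% of all genes. These counts are near the background and are not a result about the adaptors. Of 16 other FGF ligands 3 reached a mean of 5 CPM in some population, *Fgf11*, *Fgf12* and *Fgf13*. *Fgf11*, which like *Fgf12* and *Fgf13* acts inside the cell, averaged 45.8 CPM over the libraries. *Fgf12* was called as lower in small intestinal than in colonic Fgfr2+ FB, with 0 counts in 3 libraries, which allow up to 1.04 CPM, against a mean of 6.22 CPM. It was also called as lower in colonic pericytes, at 0.0778 CPM, than in colonic FB, at 5.79 ± 6.32 CPM, although 0 of 3 pericyte libraries lay below every FB library. Excepting these, no further ligand of the list was called.

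The genes whose pattern over the 10 populations was most like that of a member were found by Pearson's r of mean log2 CPM among 8058 genes. Closest to *Fgfr2* were *Cdr2* (r = 0.974), *Il15* (0.966) and *Fam198b* (0.963), and closest to *Fgfr1* were *Acat1* (0.968), *Ccar2* (0.967) and *Atp6v1b2* (0.952). For *Fgf9* they were *Cobl* (0.952), *Wnt5a* (0.951) and *F2rl3* (0.949), and for *Fgf10* *Mdga1* (0.928), *Prr16* (0.920) and *Arrdc4* (0.919). For *Fgf7* they were *Prcp* (0.943), *Usp13* (0.919) and *Nol12* (0.919). *Fgf1* was followed by *Farp1* (0.960) and *Sept8* (0.960), and *Fgf2* by *P2ry4* (0.970), *Fstl1* (0.959) and *S1pr2* (0.956). The patterns of *Fgfr3* (*Erfe*, 0.931), *Fgfrl1* (*Dok4*, 0.928) and *Fgf18* (*Clvs1*, 0.933) rest on levels that single libraries set in part. Among the members themselves, the highest r were between *Fgf2* and *Fgf7* (0.857) and between *Fgfr2* and *Fgf10* (0.768), and the lowest was between *Fgf1* and *Fgf7* (−0.675). These r are over 10 population means that share the normalization, and carry no test.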

How the data were processed

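Estimated counts and TPM of transcripts were made by the authors with kallisto 0.42.5 after FastQC 0.11.2 and Trim Galore 0.4.0, from 50-base single reads of amplified cDNA, and were deposited per library for 30 libraries. The estimated counts were summed to genes by symbol with the GENCODE M21 annotation of GRCm38, which matched 97204 of 98492 transcripts, and rounded to whole numbers for the tests. The deposited TPM served for one alternative and for the effective lengths. Summed estimated counts ranged from 2245052 to 19096945 a library.

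The members and lists were chosen with earlier results of these data known. All 10 members were described in every population. From 6 lists of pathway genes (other FGF ligands, other receptors and co-receptors, heparan sulfate proteoglycans and binding proteins, heparan sulfate modifying enzymes, receptor adaptors, feedback and target genes), called genes and the 2 most abundant genes of each list could be named. The genes of the likeness search were those among the 3 with the highest r, except where an item is not reported here.

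Tests used edgeR 4.0.16 (quasi-likelihood, TMM normalization, prior count 2) in R 4.3.3, on genes that reached 6 counts in 3 or more libraries of the fit, with Benjamini-Hochberg adjustment over all genes tested. The contrast of Fgfr2+ with PDGFRα hi FB over both tissues had 6 libraries a side and no term for tissue. The tissue differences and their interaction came from 1 model of these 12 libraries, pericytes from a fit of 6, and the comparisons within a tissue from 1 model of its 15 libraries, where the other side is the mean of the log2 levels of the populations named. Shares of IIIc were compared by exact permutation. Alternatives were DESeq2 1.42.0, RLE normalization, no filter on low counts, length-scaled TPM, a stricter filter (each library of 1 population at 10 counts or more), the replicate number as a block, a log2 fold threshold of 1, and each library left out in turn. Tables and figures used Python 3.11.15, pandas 2.3.3, numpy 2.4.6 and matplotlib 3.10.9.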

Additional observations from a re-analysis of the deposited data

Results flagged for a closer look

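Values far from the rest of their group were marked by Dixon's test, which compares the gap to the nearest value with the range of the 6 libraries of a population name, both tissues pooled. Chance alone marks about 1 in 20 groups, and 9 of 32 groups were marked. Since the groups pool tissues, a tissue difference and a single deviating library cannot be told apart by this rule.

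In Fgfr2+ FB, *Fgfr3* was at 13.0 CPM in colonic replicate 3 (others 0 to 3.42 CPM), *Fgf1* at 77.2 CPM in small intestinal replicate 2 (others 17.8 to 39.99 CPM) and *Fgf18* at 0.666 CPM in colonic replicate 3 (others 0 to 0.103 CPM). In PDGFRα hi FB, *Fgfr3* was at 2.94 CPM in colonic replicate 1 (others 0.115 to 0.815 CPM), *Fgf9* at 239 CPM in colonic replicate 2 (others 135 to 164 CPM) and *Fgf18* at 6.20 CPM in small intestinal replicate 3 (others 0 to 1.41 CPM). In pericytes, *Fgfr3* was at 94.3 CPM in small intestinal replicate 1 (others 0 to 23.6 CPM), *Fgfrl1* at 48.0 CPM in the same library (others 0 to 17.4 CPM) and *Fgf18* at 98.1 CPM in colonic replicate 3 (others 0).

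The tissue difference was marked as differing between Fgfr2+ FB and PDGFRα hi FB for 3 members, with an interaction on the log2 scale of 3.44 for *Fgfr2*, 4.66 for *Fgf7* and 3.18 for *Fgf10*. The gates of both populations differ between the tissues, and the part of the gates in these values was not tested.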

How the results depend on the processing

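Of 39 called member results, 24 stayed called under every alternative and without each library. Over 272 values from alternatives, 262 kept direction and call, 10 lost the call and 0 reversed; length-scaled TPM and the replicate block accounted for 5 lost calls each. Over 552 values with 1 library left out, 491 were kept, 59 lost the call and 2 reversed: *Fgf18* in colonic pericytes against FB (−6.30 without pericyte replicate 3, range over left-out libraries −6.30 to 5.91) and *Fgfr3* in CD81+ FB (−2.77 without replicate 3, range −2.77 to 6.72). The number of members called moved by more than 1.5 times as follows, and the cause was not tested: pericytes between tissues 0 to 1 (DESeq2); small intestinal pericytes against FB 3 to 5 (DESeq2, no filter on low counts, length-scaled TPM); SMC against pericytes 4 to 7 (DESeq2); small intestinal Fgfr2+ FB 2 to 5 (DESeq2); CD90+ FB 0 to 2 (DESeq2) and 1 (no filter); colonic Fgfr2+ FB 1 to 2 (DESeq2) and 0 (length-scaled TPM); colonic PDGFRα hi FB 2 to 1 (length-scaled TPM and replicate block). It moved less over the alternatives for Fgfr2+ against PDGFRα hi FB (2 to 3), Fgfr2+ FB between tissues (2 to 3), the interaction (2 to 3), colonic pericytes against FB (6 to 8) and CD81+ FB (2 to 4). With 1 library left out the number called was 2 to 3 for Fgfr2+ against PDGFRα hi FB, 2 to 3 and 1 to 2 for the tissues in PDGFRα hi and Fgfr2+ FB, 1 to 3 for the interaction, 0 for pericytes between tissues, 3 to 5 for small intestinal pericytes against FB, 3 to 5 for SMC, 1 to 3 for CD34+ FB, 1 to 3 and 3 to 4 for small intestinal Fgfr2+ and PDGFRα hi FB, 6 to 7 for colonic pericytes, 2 to 3 for CD81+ FB, 0 to 1 for CD90+ FB, and 0 to 1 and 1 to 2 for colonic Fgfr2+ and PDGFRα hi FB; the IIIc difference was −7.61 to −2.13 points. Genes called by edgeR and by DESeq2 were 422 and 695, 276 and 517, 485 and 1071, 201 and 563 for the first 4 of these, 0 and 354 for pericytes between tissues, 1381 and 2658 for SMC, 157 and 549, 507 and 809 for small intestinal Fgfr2+ and PDGFRα hi FB, 611 and 982 for CD81+, 19 and 83 for CD90+ and 24 and 113 for colonic Fgfr2+ FB. Without the filter they were 340 for the interaction, 22 for pericytes between tissues (3 with the stricter filter), 45 for CD90+ and 74 for colonic Fgfr2+ FB, and with length-scaled TPM 6 and 12 for the last 2. The share of called genes that were higher moved by over 10 points under DESeq2 in CD81+ (66.4% to 51.0%), CD90+ (73.7% to 55.4%), colonic Fgfr2+ (83.3% to 60.2%), colonic PDGFRα hi (59.3% to 46.9%) and small intestinal Fgfr2+ FB (72.0% to 47.4%), and with length-scaled TPM in colonic Fgfr2+ FB (100%), and under RLE in none. The median log2 fold change moved by over 0.1 without the filter, from 0.02 to −0.23 for small intestinal and from 0.05 to −0.18 for colonic pericytes against FB. The replicate number is not taken as a pairing, since 1 of 135 same-numbered pairs had a correlation over 0.1 (mean r 0.00763 against −0.00346 for other numbers), although 18 of 30 libraries correlate best with their own number out of 3 numbers; with it as a block, 339, 253, 380, 175, 0, 1755, 1176, 362, 119, 473, 2253, 462, 18, 14 and 545 genes were called for Fgfr2+ against PDGFRα hi FB, the tissues in PDGFRα hi and Fgfr2+ FB, the interaction, pericytes between tissues, small intestinal pericytes, SMC, CD34+, Fgfr2+ and PDGFRα hi FB, and colonic pericytes, CD81+, CD90+, Fgfr2+ and PDGFRα hi FB, the share higher became 61.1% in CD90+ and 100% in colonic Fgfr2+ FB, the medians of pericytes between tissues and against small intestinal FB moved to −0.12 from 0.01 and 0.02, and 5 member calls ended, *Fgf10* in Fgfr2+ against PDGFRα hi FB (adjusted p 0.0768), *Fgf7* in the interaction (0.0803), *Fgf18* in colonic pericytes (0.233), *Fgfr3* in CD81+ FB (0.340) and *Fgf10* in colonic PDGFRα hi FB (0.062), while *Fgf9* in colonic (−1.58) and *Fgf7* in small intestinal pericytes against FB (−3.17) were added, and the IIIc permutation gave p = 0.444. Low depth limits genes with few counts most, and *Fgfr3*, *Fgfrl1* and *Fgf18* were under 5 CPM in most libraries.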
